A study of Homo sapiens with 15 samples.

Results

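H3K27ac chromatin loops were compared between prostate cancer cells exposed to dihydrotestosterone (DHT) for 72 h and cells given vehicle. The members were all loops of the H3K27ac set, 296326 of the 505995 different anchor pairs of both marks (58.6%), each counted once and taken by rule from the deposited tables without regard to their values. Of them, 68822 (23.2%) were also in the H3K4me3 set. The cells were LNCaP, an established androgen-responsive line from a metastasis of prostate cancer, kept for 3 days in phenol red-free medium with charcoal-stripped serum and then given 10 nM DHT for 30 m or 4 h, for 16 h or for 72 h, or vehicle (called 0 m). For each of the 5 time points, 2 samples were labelled for H3K27ac and 1 for H3K4me3, 15 in all. All groups are 1 cell line in hormone-depleted medium, and no sample was labelled as given vehicle for 72 h, so that in every change at 72 h the effect of DHT and that of a longer time in culture cannot be told apart.

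DHT is the potent natural ligand of the androgen receptor, a transcription factor that moves into the nucleus when bound and acts mostly from enhancers far from the genes it controls. Acetylation of lysine 27 of histone H3 marks active enhancers and promoters, and H3K4me3 marks promoters. HiChIP joins DNA ends that lie close together in fixed nuclei and pulls down the fragments that carry such a mark, so that the contact of a loop reflects both the closeness of its anchors and the amount of the mark on them, which cannot be told apart here, and nor can the share of cells with a loop and its strength per cell.

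The contact of a loop is its number of read pairs at a time point, which the authors scaled between the 5 time points. Since a loop has a single value at each time point, no difference has a replicate check and no test between conditions was possible. The 95% intervals of log2 changes come from the recovered read pairs by an exact method and hold counting error alone. Where 5 values are listed, they run from 0 m through 30 m, 4 h and 16 h to 72 h. In that order the H3K27ac loops held 1989545, 3426705, 2880426, 3367952 and 2541941 read pairs, with a median of 4 to 5 read pairs per loop, too few to compare single weak loops. Of the luminal epithelial markers, 8 of 9 promoters had a loop and 6 had at least 200 read pairs over 0 m and 72 h, and their summed contact was 636 at 0 m and 839 at 72 h. Of the basal, neuroendocrine, stromal and endothelial, and blood markers none had 200 read pairs, with summed contacts of 13.2 and 15.5, 1.47 and 4.21, 33.8 and 37.4, and 9.99 and 7.37, and the basal markers KRT5, KRT14 and TP63 had no loop.

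The 15 promoters with the largest increases in contact included 6 antiviral genes of the interferon response, and the sequences of 5 of them are shown because they hold a short motif, which the promoter of the other, ZC3HAV1, does not. Each stretch is the 250 bases before the start of the canonical transcript, on the plus strand of GRCh37, and all 5 genes are read from that strand. Capitals mark GAAA, any 2 bases and GAAA on the minus strand, the core of the element through which interferon regulatory factors act.
IFIT1, chr10:91152130-91152379: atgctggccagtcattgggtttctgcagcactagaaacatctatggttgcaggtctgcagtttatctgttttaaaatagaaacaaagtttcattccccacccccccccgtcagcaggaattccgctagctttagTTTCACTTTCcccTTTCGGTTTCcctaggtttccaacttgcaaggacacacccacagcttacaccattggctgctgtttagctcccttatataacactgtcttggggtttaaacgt
IFIT2, chr10:91061553-91061802: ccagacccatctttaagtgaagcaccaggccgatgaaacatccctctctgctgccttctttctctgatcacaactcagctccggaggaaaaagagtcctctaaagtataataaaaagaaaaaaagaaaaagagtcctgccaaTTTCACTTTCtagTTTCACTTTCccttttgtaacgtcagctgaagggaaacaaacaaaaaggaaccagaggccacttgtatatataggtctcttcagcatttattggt
IFIT3, chr10:91087504-91087753: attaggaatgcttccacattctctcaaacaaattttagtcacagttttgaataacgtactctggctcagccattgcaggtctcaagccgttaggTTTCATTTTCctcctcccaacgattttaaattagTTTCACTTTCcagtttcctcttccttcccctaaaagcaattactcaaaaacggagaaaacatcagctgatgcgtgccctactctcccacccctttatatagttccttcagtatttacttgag
IFIT5, chr10:91174075-91174324: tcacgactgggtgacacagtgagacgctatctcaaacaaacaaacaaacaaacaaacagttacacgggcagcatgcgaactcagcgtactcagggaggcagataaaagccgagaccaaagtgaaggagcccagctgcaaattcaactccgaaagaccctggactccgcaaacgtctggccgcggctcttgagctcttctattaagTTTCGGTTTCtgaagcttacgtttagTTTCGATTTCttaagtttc
RSAD2, chr2:7017658-7017907: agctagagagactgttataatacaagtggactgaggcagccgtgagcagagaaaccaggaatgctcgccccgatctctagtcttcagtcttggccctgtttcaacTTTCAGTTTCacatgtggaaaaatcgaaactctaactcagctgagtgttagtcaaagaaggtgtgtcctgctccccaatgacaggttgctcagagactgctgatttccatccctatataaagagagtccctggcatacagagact
This motif, searched on both strands, was held by 5 of the 15 promoters with the largest increases, by 0 of the 15 with the largest decreases, and by 565 of 19881 protein-coding promoters (2.84%). Over all promoters called at least 1.5-fold higher at 72 h its share was 3.70%, and over the promoters with 200 read pairs not called higher it was 1.73%. The motif was chosen after these genes were seen, and a match is a description of the letters, not a bound site. For comparison, the promoter of KLK3, which encodes prostate-specific antigen and is a classical androgen receptor target, holds AGAACA, the half-site of the hormone response element, in capitals below. AGAACA lies on either strand in 8.93% of all promoters.
KLK3, chr19:51357921-51358170: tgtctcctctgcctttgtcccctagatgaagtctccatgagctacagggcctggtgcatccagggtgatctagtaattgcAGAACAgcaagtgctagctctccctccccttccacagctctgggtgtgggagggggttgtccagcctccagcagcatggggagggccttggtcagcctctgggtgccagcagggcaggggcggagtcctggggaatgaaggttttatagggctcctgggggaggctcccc
A stretch of 200 bases of a distal anchor is shown as well, since it took part in several of the loops that lost most contact. It lies in an intron of NAALADL2, and capitals mark GCAAACA, which reads TGTTTGC on the minus strand, a forkhead factor motif. AGAACA also lies in this stretch once, on the minus strand, from position 175207179. TGTTTGC is present on either strand in 15.7% of all H3K27ac loop anchors. It is also in an anchor of an IFIT3 loop with a large increase.
NAALADL2 intron, chr3:175207130-175207329: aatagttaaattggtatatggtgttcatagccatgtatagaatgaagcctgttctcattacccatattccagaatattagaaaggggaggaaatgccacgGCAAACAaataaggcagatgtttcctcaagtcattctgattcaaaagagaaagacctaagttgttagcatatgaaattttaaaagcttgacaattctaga

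Over all H3K27ac loops, the mean contact was 1.97 at 0 m and 2.26 at 72 h, a log2 change of 0.19 (95% interval 0.19 to 0.20). The change was carried by short and by strong loops. Loops under 20 kb had mean contacts of 6.14 and 8.29 (log2 change 0.43), whereas loops of 20 kb or more had 1.28 and 1.26 (-0.03). When the read pairs of both time points were scaled to the same total in place of the deposited scaling, every log2 change was lower by 0.19, so that directions within that distance of 0 rest on the scaling.

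Contact increased most in the strongest loops. Loops were classed by their mean contact at 30 m, 4 h and 16 h, which share no read pairs with 0 m or 72 h but are, like 72 h, times under DHT. In the 227629 loops with a mean contact under 2, the mean was 0.94 at 0 m and 0.86 at 72 h (log2 change -0.14). In the 36208 loops of 2 to 4 the log2 change was 0.06, in the 18849 of 4 to 8 it was 0.18, and in the 8607 of 8 to 16 it was 0.37. The 5033 loops of 16 or more had means of 21.5 at 0 m and 34.6 at 72 h, a log2 change of 0.69 (0.68 to 0.69), the largest of the 5 classes. Classed by contact at 0 m in place of these times, the strongest loops again had the largest change (0.56), but loops under 2 had 0.15 and those of 2 to 4 had -0.10, so that the direction in the 2 weakest classes rests on the classing. Within this strongest class the change was 0.75 for the 4128 loops under 10 kb and 0.30 for the 357 of 20 kb or more, and it lay between 0.57 and 0.81 in the 5 classes of GC content of the anchors.

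The same strong loops had log2 changes of 0.42 at 30 m, 0.18 at 4 h and 0.96 at 16 h, but their contact at these 3 time points chose them, so that these values describe the choice and are not set against the 0.69 at 72 h. All time points are compared with the same 0 m values. In the H3K4me3 libraries the order was the opposite: the same classes had log2 changes at 72 h of -0.01, -0.10, -0.18, -0.28 and -0.41 from weakest to strongest.

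**Figure D1:**
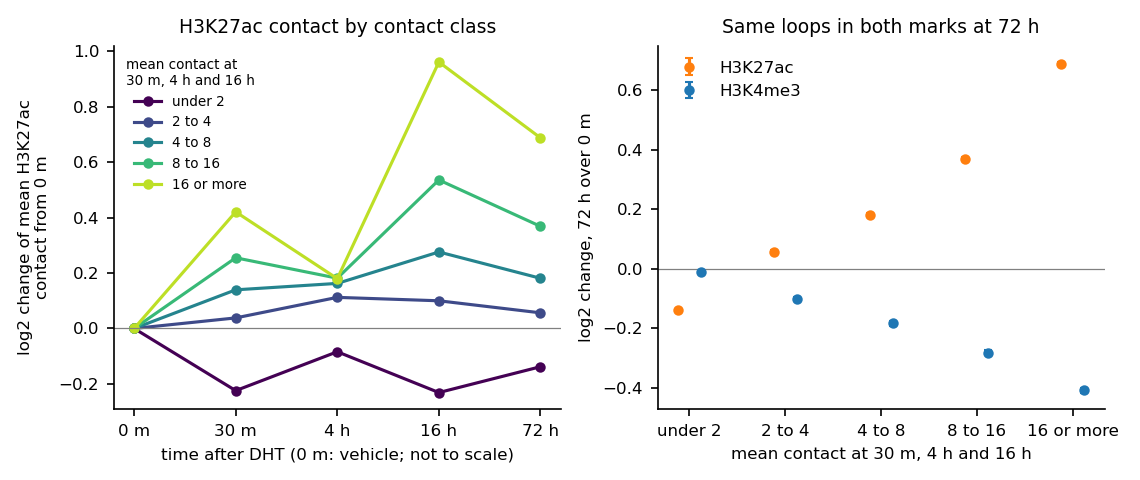
The left panel plots the log2 change of mean H3K27ac contact from 0 m (vertical axis) at each time point for 5 classes of loops by mean contact, and the right panel the changes at 72 h of H3K27ac and H3K4me3 in the same classes, with 95% counting intervals. The values at 30 m, 4 h and 16 h were used to class the loops and describe that choice. At 72 h the strongest class had 0.69 in H3K27ac and fell by 0.41 in H3K4me3.

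Loop length and the kind of anchor separated the loops further. The log2 change was 0.53 under 10 kb, 0.15 from 10 to 20 kb and 0.08 from 20 to 50 kb, and lay between -0.13 and -0.02 in the 5 classes of longer loops. Promoters reached 2500 bp to either side of a protein-coding gene's start. Loops between 2 promoters had mean contacts of 2.36 at 0 m and 3.15 at 72 h (log2 change 0.42), loops from a promoter to another region 1.89 and 2.32 (0.29), and loops between 2 other regions 1.97 and 2.11 (0.10). At 20 kb or more the values were 0.35, 0.11 and -0.21, so that distal loops without a promoter had less contact at 72 h while loops between promoters had more.

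The GC content of the anchors moved with these changes. In loops of 20 kb or more, the class with the lowest GC content, up to 38.9%, had a log2 change of -0.38, and the other 4 classes had -0.09, 0.03, 0.09 and 0.11 in rising order of GC. At 30 m the same classes had -0.71, -0.32, -0.08, 0.13 and 0.28, a wider span after a much shorter treatment, and at 4 h -0.17, -0.10, -0.05, -0.02 and 0.00. The part of base composition in the changes was not tested.

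Single loops were called higher or lower where their contact differed at least 2-fold, among the 15442 loops with at least 50 read pairs at 0 m and 72 h together. Of these, 3298 (21.4%) were higher and 352 (2.28%) lower at 72 h. The counting interval left out 0 for all of them, which follows from the 2-fold limit at 50 read pairs and is no support for the calls. The shares depend on the minimum: 16.2% were higher and 6.65% lower with at least 20 read pairs, and 29.1% and 0.77% with at least 100. With equal totals of read pairs, 2220 were higher and 606 lower. The median log2 change of the 15442 loops was 0.46. The loops called higher were short, with a median length of 5 kb, 74.3% under 10 kb and 14.4% of 20 kb or more. Those called lower had a median of 15 kb, 45.7% of 20 kb or more and 20.2% of 100 kb or more. Loops between regions without a promoter made up 75.3% of the lower calls and 54.8% of the higher ones, as of all the loops with 50 read pairs (54.8%). The median GC content was 41.7% for the lower calls, 44.5% for the higher calls and 45.75% for all.

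Among loops of 20 kb or more with 50 read pairs, 15.2% were called higher and 5.15% lower. In the lowest GC class of these, 23.0% were called lower and 7.59% higher, and in the other 4 classes between 1.67% and 6.43% were called lower. The H3K4me3 contact of the loops called higher had a log2 change of -0.28 and that of the loops called lower of -0.42, beside -0.34 for all loops with 50 read pairs. Thus the H3K4me3 libraries had less contact for loops called in either direction.

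**Figure D2:**
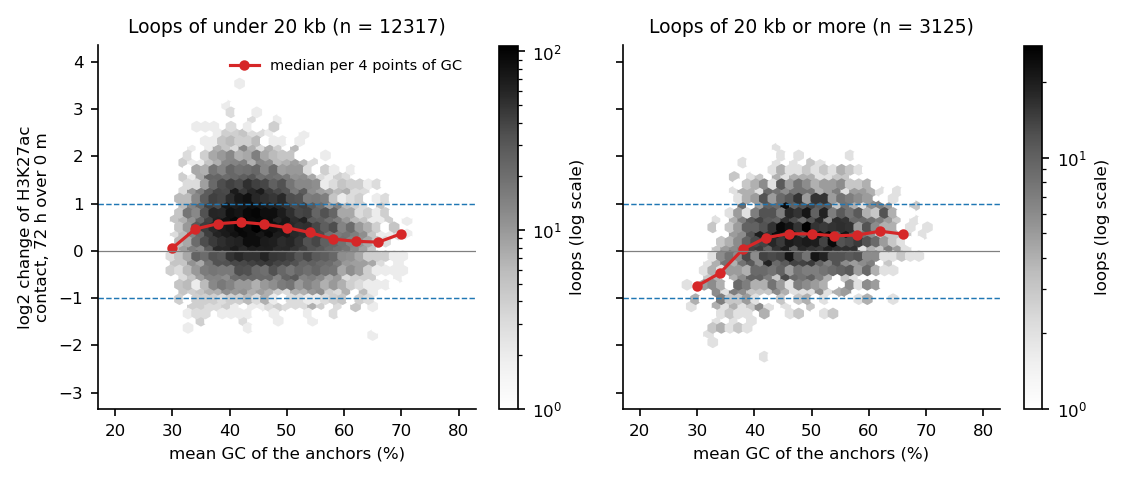
Each hexagon counts loops with at least 50 read pairs by the mean GC content of their anchors in percent (horizontal axis) and their log2 change at 72 h (vertical axis), for loops under 20 kb and for the 3125 of 20 kb or more, with the median per GC bin as a line and the 2-fold limits dashed. Loops of 20 kb or more in the lowest GC class had a median log2 change of -0.32.

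The strongest loop at 72 h joined 2 exonic anchors of TBX3, a T-box transcription factor gene, 5 kb apart on chr12. It had 653, 1758, 1052, 3198 and 2267 read pairs over the 5 time points, a log2 change in contact of 1.64 (1.51 to 1.76). A 5 kb loop at the promoter of TNRC18 followed, with 476 and 1805 read pairs at 0 m and 72 h (log2 change 1.76), and a loop beside HOXB13, the prostate homeobox gene, had 495 and 1400 (1.34). The 10 strongest loops, chosen by their contact at 72 h, all spanned 5 kb, and their log2 changes, which that choice favours, ran from 0.79 at an intronic loop of NFIX, a nuclear factor I gene, to 3.01 at the promoter of ZC3HAV1.

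The largest increase of a single loop with 100 read pairs, among those chosen by size, lay between 2 intergenic anchors 41.4 and 46.4 kb from CLPB, a mitochondrial chaperone gene, on chr11. It had 6, 60, 29, 122 and 98 read pairs over the 5 time points and a log2 change in contact of 3.87 (2.70 to 5.35). The second was the 5 kb loop from the promoter of IFIT3, chr10:91087001-91088000 to chr10:91092001-91093000, with 13, 54, 24, 183 and 169 read pairs (3.54, 2.73 to 4.48). Of the 10 largest increases, 3 lay at interferon-induced genes, IFIT3, IFIT2 (12 and 144 read pairs, 3.43) and OASL (15 and 157, 3.23), which encodes an antiviral oligoadenylate synthetase-like protein, and a further one lay in NRIR, a long non-coding RNA gene beside CMPK2 (15 and 167, 3.32). The others lay in DNAJC13, COX10-DT, MYO5B, CHST15 and GSN, and all 10 were 5 kb long.

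Among loops of 20 kb or more, chosen after the values were seen, the largest increase joined the promoters of YWHAZ, which encodes a 14-3-3 adaptor protein, and ZNF706 over 255 kb. It had 33, 119, 35, 144 and 166 read pairs over the 5 time points (log2 change 2.17, 1.63 to 2.76). A 65 kb loop to the promoter of ACSL3, an androgen-induced fatty acid ligase gene, had 24, 42, 31, 95 and 93 read pairs (1.79, 1.13 to 2.51). Further ones reached the promoters of PCDH1 (30 kb, 1.98), MORC3 (20 kb, 1.97) and ZNF703 (335 kb, 1.77), a luminal zinc finger gene, and the last of these had 27 and 103 read pairs at 0 m and 72 h.

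The largest decreases lay mostly within introns of low GC content. A 155 kb loop within CNBD1 had 105, 39, 102, 54 and 29 read pairs over the 5 time points, a log2 change in contact of -2.02 (-2.66 to -1.41). A 25 kb loop within CPED1 had 120, 55, 110, 80 and 37 (-1.86). In NAALADL2, 3 of the 10 largest decreases shared the anchor printed above, at lengths of 60, 100 and 10 kb, and the 10 kb loop had 410, 173, 365, 236 and 154 read pairs (-1.57, -1.85 to -1.30). Others lay in NCAM2, PPFIA2 and MMP26. The one exception was a 5 kb loop at the promoter of CHD4, a chromatin remodelling ATPase gene, with a GC content of 55.4% and 76, 99, 117, 43 and 24 read pairs (-1.82); the other 9 had between 30.4% and 43.1% GC. At these 9 loops the read pairs were lower at 30 m than at 0 m, although the 30 m values held more read pairs in all.

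Most loops called lower stood alone, and a minority were gathered in a few places. The 352 loops fell into 259 groups joined by shared anchors, of which 218 had a single loop (61.9% of the loops) and 15 had 3 or more, with 82 loops in all (23.3%). The regions of these 15 groups, taken with all their loops, had log2 changes between -1.54 and -0.31, with a median of -0.98. The region of PPFIA2, a liprin gene, held 12 such loops. Its 85 loops had a summed contact of 781, 430, 722, 597 and 397 over the 5 time points, a log2 change of -0.98 (-1.07 to -0.89). The 579 loops across NAALADL2 had 1590 at 0 m and 795 at 72 h (-1.0), the 118 loops across CNBD1 had 627 and 249.98 (-1.33) and the 31 in NCAM2, a neural adhesion gene, had 192 and 75.3 (-1.35). A region in MIPOL1 held 9 lower loops but had a smaller change, from 998 to 804 (-0.31), and a region reaching from POU5F1B to MYC held 6 and had 523 and 249.98 (-1.06). H3K4me3 contact was above its 0 m level in 12 of the 15 regions and below it in 3, with log2 changes between -0.43 and 1.16. Over all loops of 20 kb or more the H3K4me3 change was also above 0 without a promoter (0.09) and in the lowest GC class (0.12), so that nothing particular to these regions is read from it.

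For each protein-coding gene, contact was summed over all loops with an anchor in its promoter. Of 19881 promoters, 14323 had an H3K27ac loop and 4738 had at least 200 read pairs at 0 m and 72 h together. Of the latter, 1377 (29.1%) were at least 1.5-fold higher at 72 h and 85 (1.79%) at least 1.5-fold lower. With equal totals, 752 were higher and 200 lower. These 4738 promoters had 4058 different sets of loops, since neighbouring promoters share anchors. Their median log2 change was 0.35, with quartiles of 0.08 and 0.63, and that of their loops of 20 kb or more was 0.22. The median H3K4me3 change was -0.26 over all of them, -0.23 over those called higher and -0.29 over those called lower.

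IFIT3, an interferon-induced gene whose protein takes part in blocking viral RNA, had the largest increase among promoters with 200 read pairs. Its summed contact was 6.46, 13.3, 7.05, 44.2 and 54.996 over the 5 time points, from 22 read pairs at 0 m and 209 at 72 h, a log2 change of 3.09 (2.45 to 3.79). Contact was thus above vehicle at 30 m, near it at 4 h and highest at the 2 late time points. This order was not particular to IFIT3, whose loop anchors had 42.3% GC. The 882 promoters with 200 read pairs and 40% to 45% GC had median log2 changes of 0.28, -0.06, 0.46 and 0.41 from 30 m to 72 h. ZC3HAV1, which encodes an antiviral protein that binds foreign RNA, had 65.5, 137, 67.3, 343 and 370.2, a log2 change of 2.50 (2.29 to 2.71) with 1407 read pairs at 72 h. IFIT2, IFIT5 and IFIT1, of the family of IFIT3 and its neighbours on chr10, had log2 changes of 2.44, 2.25 and 1.86, and RSAD2, the gene of the antiviral enzyme viperin, of 2.02.

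The remaining 9 of the 15 largest increases had other functions. KPNA7, an importin alpha gene, had a summed contact of 22.9, 59.9, 25.6, 109 and 114 over the 5 time points (2.32, 1.97 to 2.69). LGALS3, which encodes galectin-3, had 11.5, 27.9, 19.7, 66.0 and 52.1 (2.18). SAR1A, the gene of a GTPase of vesicle budding from the endoplasmic reticulum, had 15.9 and 62.6 at 0 m and 72 h (1.98). POFUT1, whose enzyme adds fucose to Notch receptors, and the neighbouring PLAGL2, a zinc finger factor gene, shared all their loops and had 54.4 and 199 (1.87). The others were CDC42EP5 (2.27), UTP25 (2.10), EVL (2.03), RBMS2 (1.92) and CMTM4 (1.91).

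Of these 15 promoters, 14 also had loops of 20 kb or more, and the log2 changes of those loops lay between 0.79 at LGALS3 and 2.65 at RSAD2. The 15 promoters had log2 changes between 0.26 and 1.39 at 30 m, between -0.22 and 0.78 at 4 h, and at 16 h between 1.62 and 2.77. In H3K4me3, 10 of the promoters had at least 50 H3K4me3 read pairs at 0 m and 72 h together. Of these, 6 had log2 changes above and 4 below 0, between -0.50 and 0.59. Of all promoters with 200 H3K27ac read pairs, 83.1% were below 0, but this share has no minimum of H3K4me3 read pairs and is not on the same basis.

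Among the promoters with 200 read pairs, OR51D1, an olfactory receptor gene, had the largest decrease, with a summed contact of 84.9, 30.9, 78.4, 30.8 and 29.5 over the 5 time points (log2 change -1.53, -1.85 to -1.21). BCHE, the butyrylcholinesterase gene, listed here as androgen-repressed, had 104.9, 23.8, 82.7, 47.6 and 36.6 (-1.52, -1.81 to -1.23), and 47 of its 48 loops were of 20 kb or more. Both were low at 30 m, 16 h and 72 h and nearer to vehicle at 4 h. All loops of 20 kb or more in the lowest GC class had log2 changes of -0.71, -0.17, -0.32 and -0.38 from 30 m to 72 h. The loop anchors of BCHE had 35.8% GC, so that its time course is not read as particular to it. NIPSNAP3B had 94.0 and 34.7 at 0 m and 72 h (-1.44).

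Other decreases differed in their time course. JAG2, which encodes a Notch ligand, had 56.7, 55.6, 60.5, 33.3 and 26.1 (-1.12, -1.49 to -0.77). HPN, the gene of the membrane serine protease hepsin, had 58.5, 47.5, 60.9, 44.2 and 28.4 (-1.04, -1.39 to -0.70). RDH12, a retinol dehydrogenase gene, had 134.9, 73.4, 119, 123 and 64.2 (-1.07). Contact was thus near vehicle through 4 h at JAG2, lowest at 72 h at HPN, and low at both 30 m and 72 h at RDH12. MANEA fell from 47.9 at 0 m to 21.2 at 30 m, MMP16 from 58.5 to 17.1, PLEKHS1 from 48.5 to 24.8 and DSEL from 47.0 to 21.1. The list went on with WDR18 (-1.21), MANEA (-1.08), GPT with its neighbour MFSD3 (-1.06), MMP16 (-1.0), PLEKHS1 (-0.97), DSEL (-0.96), E2F4 (-0.93), PIM3 (-0.92) and IL1F10 (-0.91). Their loops of 20 kb or more, present at 14 of the 15 promoters, had log2 changes between -1.74 and -0.27. The GC content of their loop anchors ran from 33.8% to 63.4%, and 5 of the 15 were under 40%.

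**Figure D3:**
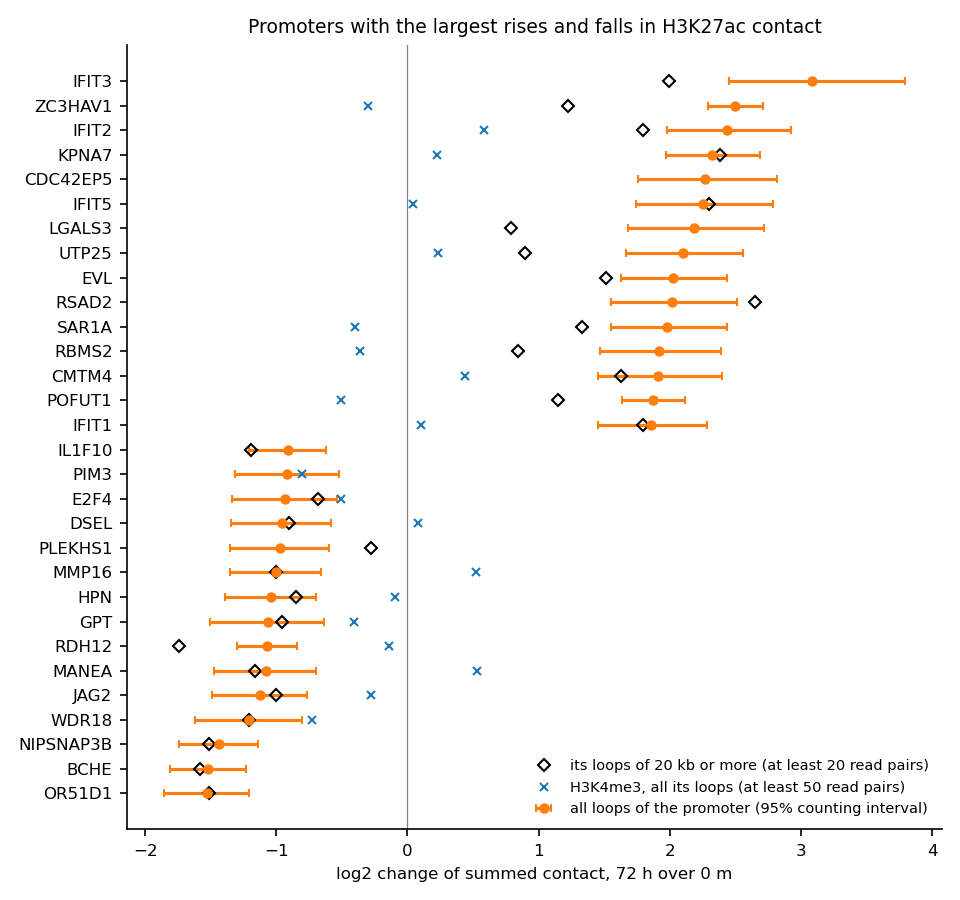
Points give the log2 change at 72 h (horizontal axis) of summed H3K27ac contact for the 15 promoters with the largest increases and the 15 with the largest decreases, with 95% counting intervals, diamonds their loops of 20 kb or more and crosses their H3K4me3 contact where the read pairs sufficed. Increases ran from 1.86 at IFIT1 to 3.09 at IFIT3 and decreases from -0.91 at IL1F10 to -1.53 at OR51D1.

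The interferon-induced genes were gathered into a list of 42 after these values were seen, so that its count is a description of the choice. Of the 42, 35 had a loop and 17 had 200 read pairs, and 15 of the 17 (88.2%) were higher at 72 h and 0 lower, beside 29.1% and 1.79% of all promoters with 200 read pairs, with a median log2 change of 1.08. Next to those named above, SAMHD1, a nucleotide-cleaving restriction factor gene, had 16.5, 27.3, 16.2, 50.1 and 46.6 (1.5), ISG20, an exonuclease gene, 26.2, 33.7, 28.4, 74.1 and 73.7 (1.49), and RIGI, the gene of a viral RNA sensor, 24.98, 25.9, 19.7, 44.2 and 52.6 (1.08). STAT2, which carries the interferon signal to the nucleus, had a log2 change of 0.75 (0.49 to 1.02). The 2 that were not called were regulators of the response, IRF7 (0.43, 0.15 to 0.72) and IRF9 (0.00, -0.33 to 0.34). The median over their loops of 20 kb or more was 0.53, and over their H3K4me3 contact -0.04. MX1, OAS2, IFI16 and CMPK2, which also belong to the response, had no H3K27ac loop at their promoters.

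Few androgen-induced genes with enough read pairs passed 1.5-fold at 72 h. Of 36 listed genes, 32 had a loop and 19 had 200 read pairs, of which 2 (10.5%, beside 29.1% of all promoters) were higher and 0 lower at 72 h. The counting interval left out 0 for 57.9% of the 19, which ran from -0.56 to 1.14. Of all promoters with 200 read pairs, the interval lay above 0 for 54.1% and below 0 for 5.89%, so that the share is near that of all. The median log2 change was 0.11, beside 0.35 for all promoters with 200 read pairs. At 16 h it was 0.46 against the same 0 m values. Classed by GC content of their anchors, all promoters with 200 read pairs had 16 h medians between 0.30 and 0.50. KLK3 had a summed contact of 30.6, 50.2, 89.7, 95.96 and 32.9 over the 5 time points, and its log2 change at 72 h was 0.11 (-0.28 to 0.50). All of it came from a single loop of under 20 kb, so that no contact of the promoter over a longer distance enters the value. KLK2, which encodes a kallikrein protease of the prostate, had 48.5, 52.2, 96.8, 94.7 and 38.9 (-0.32, -0.65 to 0.01), nearly all in a single 5 kb loop. Contact at both genes was thus highest at 4 h and 16 h, and at 72 h the interval of the change held 0.

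TMPRSS2, a transmembrane protease gene, had 68.5, 77.9, 97.6, 76.9 and 68.9 (0.01, -0.25 to 0.27). Its loops under 20 kb and those of 20 kb or more differed in sign, with log2 changes of 0.39 and -1.11 (-1.67 to -0.56). SLC45A3, a prostate transporter gene, had 48.2, 48.6, 56.6, 59.0 and 34.7 (-0.47), STEAP2, a metalloreductase gene, had 302, 198, 281, 287 and 229 (-0.40), and KCNMA1, a potassium channel gene, had 49.9 and 33.9 at 0 m and 72 h (-0.56). None of these passed 1.5-fold. The 2 that did were ACSL3, with 39.4, 45.5, 36.5, 78.3 and 86.6 (1.14, 0.84 to 1.44), and LIFR, a cytokine receptor gene, with 33.2, 44.98, 36.3, 66.2 and 56.6 (0.77, 0.43 to 1.11). The remaining 11 genes lay between -0.32 at KLK4 and 0.45 at SORD, and FKBP5 was among the 13 with fewer than 200 read pairs. Of the 15 kallikrein genes, 8 had a loop and 4 had 200 read pairs, 0 were called, and the median was -0.15 at 72 h and 0.89 at 16 h.

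**Figure D4:**
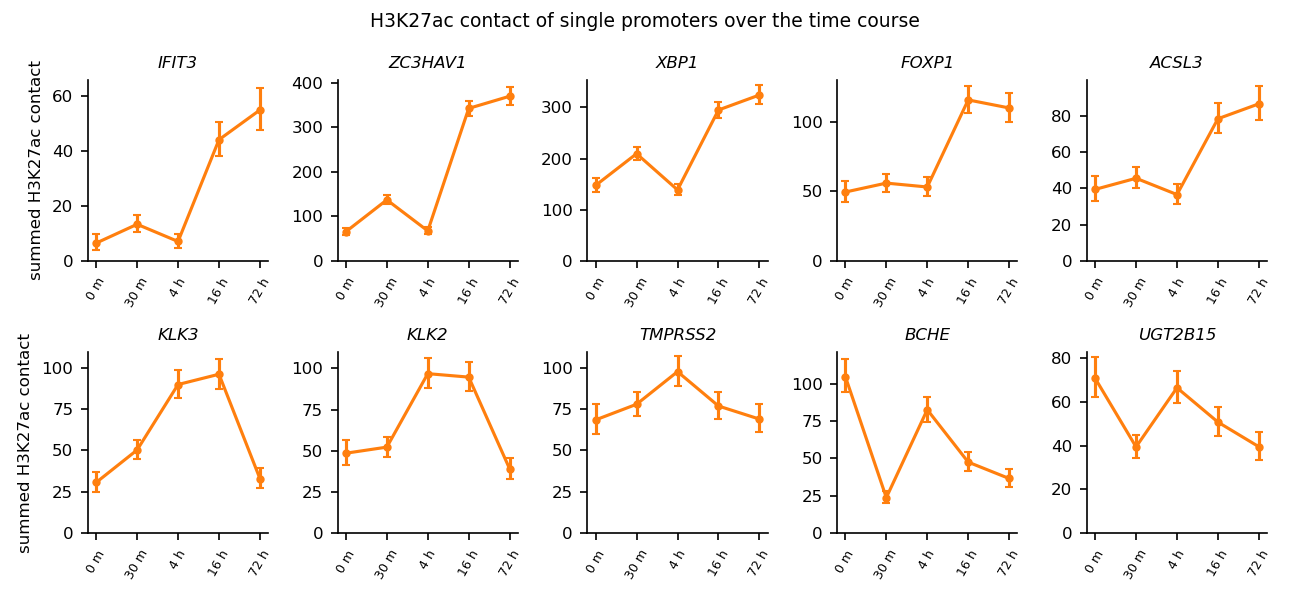
Summed H3K27ac contact of the loops of 10 promoters (vertical axes) at the 5 time points (horizontal axes), with exact 95% counting intervals. IFIT3 and ZC3HAV1 were high at 16 h and 72 h, KLK3 and KLK2 were high at 4 h and 16 h and had log2 changes of 0.11 and -0.32 at 72 h, and BCHE was low at 30 m, 16 h and 72 h.

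Of the androgen-repressed genes with enough read pairs, all 4 had less contact at 72 h, and 2 of them passed the limit. Of 9 listed genes, 4 had 200 read pairs, and 2 of them, BCHE and UGT2B15, were called lower at 72 h (50%, beside 1.79% of all promoters). UGT2B15, whose enzyme conjugates androgens with glucuronic acid, had 70.8, 39.4, 66.5, 50.7 and 39.5 (-0.84, -1.15 to -0.54). MYC, the growth-promoting transcription factor gene, had 252, 176, 191, 228 and 171 (-0.56, -0.71 to -0.41), just inside the 1.5-fold limit. Its loops moved apart by length: a 5 kb loop had contacts of 39.7 and 49.2 at 0 m and 72 h (0.31, -0.02 to 0.64), a 215 kb loop had 45 and 10 read pairs (-2.33, -3.48 to -1.32) and a 715 kb loop 71, 50, 78, 86 and 24 over the 5 time points (-1.72, -2.46 to -1.04). CAMK2N1, an inhibitor of a calmodulin-dependent kinase, had a log2 change of -0.29.

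Of 20 transcription factor genes of luminal prostate cells, 16 had 200 read pairs, 6 were higher and 0 lower, and the median log2 change was 0.50. The share called higher was 37.5%, near the 29.1% of all promoters. FOXP1, a forkhead factor gene, had 49.4, 55.8, 53.0, 115.5 and 109.7 (1.15, 0.89 to 1.42), and all of its loops were of 20 kb or more. XBP1, the factor that switches on secretory pathway genes, had 148, 209, 139, 295 and 324 (1.14, 0.99 to 1.29), with 0.87 in its loops of 20 kb or more. GATA2, a pioneer factor of the androgen receptor, had 82.0, 130, 99.8, 193 and 172 (1.07), nearly all in a single 5 kb loop. TRPS1 (0.95), ELF3 (0.84) and ZNF217 (0.69) were the others. FOXA1, the forkhead factor that opens chromatin for the androgen receptor, had 211, 174, 164, 368 and 317 (0.58, 0.45 to 0.72), just under the limit. Its 5 kb loop had 209 and 669 read pairs at 0 m and 72 h (1.52, 1.29 to 1.75) while its loops of 20 kb or more had a log2 change of -0.09 (-0.27 to 0.09). SPDEF, an Ets factor of secretory epithelium, was lowest of the list at -0.37.

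Secretory pathway and unfolded protein response genes, whose products fold and move proteins for export, had 14 of 24 genes with 200 read pairs, of which 5 (35.7%, beside 29.1% of all promoters) were higher and 0 lower (median 0.41). KDELR2, which returns chaperones to the endoplasmic reticulum, led with 46.1, 118.4, 60.7, 135.03 and 132.9 (1.53, 1.27 to 1.79), and HSP90B1, the chaperone gene, had 30.0 and 54.2 at 0 m and 72 h (0.85). SEC23B (0.75), a gene of the COPII vesicle coat, and CANX (0.71), which encodes calnexin, were also called. Sterol and fatty acid synthesis genes had 18 of 27 with 200 read pairs, 4 higher (22.2%, below the share of all promoters) and 0 lower (median 0.21). FDPS (0.75) and SC5D (0.69), both of the cholesterol pathway, were among those higher. FASN, the fatty acid synthase gene, had 134.6, 155.3, 146.8, 151.4 and 96.8 (-0.47, -0.68 to -0.27), and INSIG1 -0.47. Of the 10 polyamine genes, 6 had 200 read pairs and 2 were higher, ODC1 (1.16, 0.90 to 1.43), the first enzyme of the pathway, and OAZ2 (0.66), with a median of 0.25.

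Immediate early genes, which answer growth and stress signals, had 8 of 16 with 200 read pairs, 4 higher (50%, beside 29.1% of all promoters) and 0 lower (median 0.60): NR4A1 (0.96), DUSP1 (0.82), EGR1 (0.77) and FOSL2 (0.64). Steroid targets shared with the glucocorticoid receptor had 7 of 12 with 200 read pairs and 2 higher, CDKN1A (1.12, 0.82 to 1.41), a cell cycle inhibitor gene, and DUSP1 (median 0.49). Coregulators of the androgen receptor had 12 of 24, 1 higher and 0 lower (median 0.41), ARID1A at 0.76, while the corepressor gene NCOR1 had -0.52. Insulin and IGF signalling genes had 5 of 17, with the adaptor gene GRB10 higher at 1.44 (median 0.10).

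Genes of the cell cycle and DNA replication had 6 of 34 with 200 read pairs. CDK2, a kinase that drives entry into S phase, was higher (0.88, 0.47 to 1.30), and CDT1, which licenses replication origins, was lower with 67.3, 102, 81.0, 53.5 and 36.6 (-0.88, -1.19 to -0.57), for a median of 0.37. Of 82 ribosomal protein genes 53 had 200 read pairs, 4 were higher (RPL17 at 0.86, RPS15 at 0.65, RPS18 at 0.62 and RPL24 at 0.61) and 2 lower (RPS28 at -0.72 and RPS21 at -0.60), with a median of 0.09. Of 20 housekeeping genes 15 had 200 read pairs and 3 were higher, YWHAZ at 139, 261, 133, 317 and 373 (1.43) and B2M, the light chain of class I antigen presentation (0.69), among them, with a median of 0.20. Thus promoters of common cellular functions also differed past the limit, and the medians of the lists are read beside the 0.35 of all promoters and the shares called higher beside 29.1%.

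**Figure D5:**
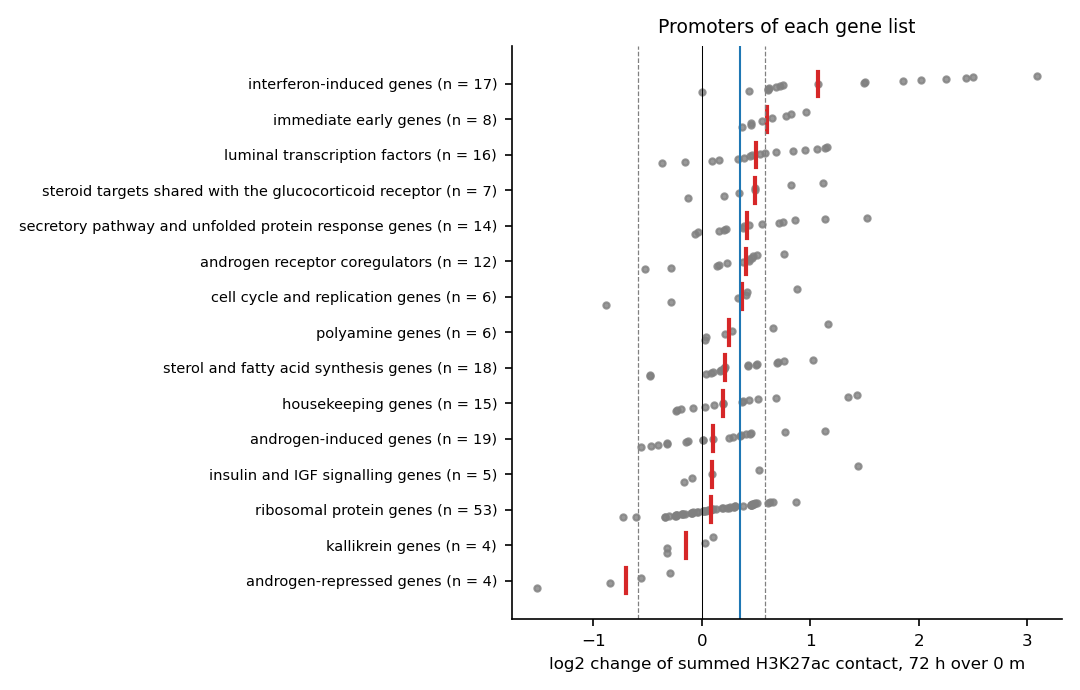
Each dot is a promoter with at least 200 read pairs and its log2 change of summed H3K27ac contact at 72 h (horizontal axis) in each gene list, with the list's median in red, the median of all such promoters (0.35) as a blue line and the 1.5-fold limits dashed. The interferon-induced genes, listed after their values were seen, had a median of 1.08, and among the other lists the medians ran from -0.70 for the androgen-repressed to 0.60 for the immediate early genes.

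The study had also sorted genes by the time of their highest nascent RNA, measured in the same cells by another assay. Of the genes of the 30 m class, 15 had 200 read pairs, with a median log2 change at 72 h of 0.25. The 4 h class had 25 such genes (median 0.19), the 16 h class 52 (0.44) and the 72 h class 41 (0.32). Higher contact was called for 2, 8, 19 and 11 of them (13.3%, 32%, 36.5% and 26.8%) and lower contact for 1, 0, 1 and 0. These shares and medians lay around those of all promoters with 200 read pairs, 29.1% and 0.35. In the 72 h class, ISG20 (1.49), ZFP36, which encodes an RNA-destabilizing zinc finger protein (62.6, 119, 78.8, 138 and 149, log2 change 1.25), and TFF1, a secreted trefoil peptide gene (36.4, 50.2, 37.6, 71.1 and 75.8, 1.06), had the largest increases. In the 16 h class IFIT3, ZC3HAV1, IFIT2 and IFIT1 led, followed by TXNIP, a glucose-regulated gene, with 107, 96.8, 105, 253 and 347 (1.70, 1.53 to 1.87).

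Motifs of the androgen receptor and of forkhead factors were counted on both strands of the deposited 1 kb anchors. AGAACA was present in 55.1% of all H3K27ac loop anchors, in 51.1% of the anchors of loops with 50 read pairs, in 52.5% of those of loops called higher and in 51.5% of those of loops called lower. The full palindrome of AGAACA and TGTTCT with 3 bases between them was in 29 of 143648 anchors, in 0 of 5973 anchors of loops called higher and in 0 of 598 of loops called lower. TGTTTAC or TGTTTGC, forkhead motifs, was in 26.4% of the anchors of loops with 50 read pairs, in 27.3% for the higher calls and in 31.4% for the lower calls. Among loops of 20 kb or more the shares were 26.2% for all with 50 read pairs and 35.7% (29.8% to 42.0%, exact binomial) for the lower calls. The anchors of these lower calls were also poorer in GC, with a median of 38.85% against 47.35%, and the part of base composition in the motif share was not tested.

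Few loops were present at only 1 of the 2 time points. No read pair was found at 0 m alone for 15796 loops (5.33%), at 72 h alone for 17850 (6.02%) and at both for 1430. The most read pairs at 72 h of a loop without any at 0 m were 24, and the most at 0 m of a loop without any at 72 h were 18, in an intron of DIS3L2. A count of 0 allows up to 3 read pairs, and where presence meant at least 3, the counts of loops were 49051, 50789 and 54900, so that absence was mostly not detectable at this depth.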

How the data were processed

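HiChIP of H3K27ac and H3K4me3 was measured in LNCaP cells at 5 time points of DHT treatment. The authors trimmed reads with Trim Galore 0.5.0, aligned them to hg19 with Bowtie2 within HiC-Pro 3.1.0 (per the submitters' processing notes and the methods) and called loops with FitHiChIP in 5 kb bins at a q-value below 0.01 on the merged time points of a mark. The deposited values are a contact signal per loop, scaled by TMM among the time points of a mark. Whether both H3K27ac replicates entered a value is not given in the sources used here. All values (100%, tolerance 0.001 read pairs) were whole multiples of the smallest non-zero value, by which read pairs were recovered. No column of values was left unused (0).

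Groups came from the sample titles. Each H3K27ac anchor pair was used once. With 1 value per time point no count model could be fitted, and called means past 2-fold for loops with at least 50 read pairs and past 1.5-fold for promoters with at least 200. Intervals are Clopper-Pearson at 95%. Promoters are 2500 bp on either side of canonical starts of protein-coding genes in Gencode 44 lifted to GRCh37, and sequences are from GRCh37. Genes and loops named are the 15 promoters and 10 loops of largest change in each direction (200 and 100 read pairs), the 10 strongest loops, up to 4 of largest change per list, and the members needed to account for the androgen-induced and kallikrein lists. FOXA1, MYC, IRF7, IRF9, STAT2, B2M and the motif, interferon list and long loops with increases were added after values were seen. Values of some list members are not reported here. The members and lists were chosen with earlier results of these data known.

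On data simulated with counting error alone, 100% of the read pairs were recovered, and 100% of 100 loops with a 4-fold rise and of 100 with a 4-fold fall were called. There, 0.492% of unchanged loops were called, and intervals held the true change in 96.1% of 15637 loops. Differences between libraries were not simulated, so that these shares are not error rates of the calls in the real data. Alternatives varied scaling, loop length, minimum read pairs, classes, promoter definition and pooling. Python 3.11.15, numpy 2.4.6, pandas 2.3.3, scipy 1.17.1 and matplotlib 3.10.9 were used.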

Additional observations from a re-analysis of the deposited data

Results flagged for a closer look

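H3K27ac and H3K4me3 contact moved in opposite directions at 72 h in 4 of the 5 classes of loops by mean contact. The log2 changes of H3K27ac and H3K4me3 were 0.056 and -0.10 in loops of 2 to 4, 0.18 and -0.18 in loops of 4 to 8, 0.37 and -0.28 in loops of 8 to 16 and 0.69 and -0.41 in loops of 16 or more. Each mark has a single value per loop and time point, so that the difference between the marks was not tested. With both H3K27ac totals made equal, the classes of 2 to 4 and 4 to 8 were also below 0 in H3K27ac (-0.14 and -0.01). The H3K4me3 values were not rescaled in this way, and their log2 change over all loops was -0.17. Directions near 0 thus rest on the scaling in both marks.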

How the results depend on the processing

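No paired analysis was possible because the tables hold 1 value per time point with no replicate number, and for the same reason leaving out a replicate was not run. The depth limits single loops, and every change rests on 1 value per time point.

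Scaling both time points to the same total lowers every log2 change by 0.19 by construction. The log2 change of all loops was then 0. By contact class it was -0.33 for under 2, -0.14 for 2 to 4, -0.013 for 4 to 8, 0.17 for 8 to 16 and 0.49 for 16 or more. By length it was 0.34 for under 10 kb, -0.043 for 10 to 20 kb, -0.11 for 20 to 50 kb, -0.22 for 50 to 100 kb, -0.27 for 100 to 200 kb, -0.30 for 200 to 500 kb, -0.32 for 500 to 1000 kb and -0.31 for 1000 kb or more. By kind of loop it was 0.22 for promoter to promoter, 0.10 for promoter to other and -0.10 for other to other, and by GC class -0.22 for class 1, -0.015 for class 2, 0.062 for class 3, 0.094 for class 4 and 0.039 for class 5. Loops called lower were 606, promoters called higher 752 and promoters called lower 200. The list medians were 0.21 for coregulators, -0.088 for androgen-induced, -0.89 for androgen-repressed, 0.18 for cell cycle, 0.0014 for housekeeping, 0.41 for immediate early, -0.10 for IGF, -0.34 for kallikrein, 0.30 for luminal factors, 0.052 for polyamine, -0.11 for ribosomal, 0.22 for secretory pathway, 0.29 for shared steroid targets and 0.017 for sterol and fatty acid. The nascent classes had medians of 0.052 for the 30 m class, 0.00056 for the 4 h class, 0.25 for the 16 h class and 0.12 for the 72 h class.

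With loops of 20 kb or more alone, the log2 change of all loops was -0.027. By contact class, chosen after seeing the data, it was 0.074 for 2 to 4, 0.17 for 4 to 8, 0.25 for 8 to 16 and 0.30 for 16 or more, by GC class, also chosen later, -0.38 for class 1, -0.094 for class 2, 0.028 for class 3, 0.094 for class 4 and 0.11 for class 5, and by kind of loop 0.35 for promoter to promoter, 0.11 for promoter to other and -0.21 for other to other. Calls were 475 loops higher and 161 lower, and 524 promoters higher. The list medians were 0.24 for coregulators, -0.078 for androgen-induced, -0.85 for androgen-repressed, 0.12 for housekeeping, 0.48 for immediate early, -0.37 for kallikrein, 0.36 for luminal factors, 0.088 for polyamine, 0.12 for ribosomal, 0.33 for shared steroid targets and 0.33 for sterol and fatty acid, and the nascent class medians 0.10 for the 30 m class and 0.57 for the 16 h class. Fewer loops enter these values by construction, and the cause of the reversed ones was not tested.

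With loops classed by contact at 0 m, which shares read pairs with the comparison, the log2 change was 0.15 for under 2, -0.10 for 2 to 4, 0.13 for 4 to 8, 0.33 for 8 to 16 and 0.56 for 16 or more, and classed by 16 h -0.18 for under 2, 0.045 for 2 to 4, 0.35 for 8 to 16 and 0.72 for 16 or more. With the 5 kb bin in place of the anchor it was 0.51 for promoter to promoter, 0.19 for promoter to other and 0.095 for other to other. With at least 20 read pairs, 8118 loops were higher and 3331 lower, and with at least 100, 1628 and 43, while 239 promoters were lower at 100. Pooled read pairs gave list values of 0.21 for cell cycle, 0.59 for housekeeping, 0.28 for IGF, 0.56 for luminal factors, 0.36 for polyamine, 0.15 for ribosomal, 0.59 for secretory pathway and 0.28 for sterol and fatty acid. At 50 read pairs the list medians were -0.56 for androgen-repressed, 0.15 for cell cycle, 0.49 for IGF and 0.043 for ribosomal. With presence at 3 read pairs, loops absent were 49051 at 0 m only, 50789 at 72 h only and 54900 at both. With the start of the gene record, an alternative chosen after seeing the data, 1306 promoters were higher and 79 lower.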

Other observations

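Regions with many loops called higher were found at other genes than those named for their promoters. Around TACC2, a gene of the mitotic spindle, 9 of 14 loops with 50 read pairs were called higher and 0 lower, and the 32 loops of the region had a summed contact of 242, 317, 238, 511 and 483 over the 5 time points (log2 change 1.0, 0.88 to 1.12). Around CSNK1A1, a casein kinase gene, and ARHGEF37 the 37 loops had 330.0, 477, 357, 962 and 746 (1.18, 1.08 to 1.28). Around CSTA, a cysteine protease inhibitor gene, and FAM162A the 17 loops had 85.5, 121, 88.5, 208 and 206 (1.27), and across CD34 the 8 loops had 139, 177, 157, 284 and 334 (1.26). H3K4me3 contact in these 4 regions had log2 changes between -0.18 and -0.08. They were picked, after their values were seen, from the regions with most calls. In the region with the most loops called higher, around CTBP2 and TEX36, 14 of 32 loops with 50 read pairs were called higher and 1 lower. Its 305 loops had a log2 change of 0.33 and one of 0.07 in H3K4me3. Over all 138 regions with 3 or more grouped calls, the log2 change lay between 0.21 and 2.67, with H3K4me3 below its 0 m level in 91 and above it in 47. Of single loops with 50 read pairs in each mark, 83.8% were below 0 in H3K4me3.

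Loops called higher fell into 2688 groups joined by shared anchors, of which 2349 had 1 loop and 138 had 3 or more, with 547 loops in all (16.6%). Over chr1 to chr22 and chrX, the log2 change of mean H3K27ac contact lay between 0.05 on chr21 and 0.31 on chr19, and chr3, with NAALADL2 and BCHE, had 0.07.

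At 72 h, promoters with 200 read pairs had a lower median at high GC content of their loop anchors. At under 40% GC of their loop anchors, 396 promoters had a median log2 change of 0.41 at 72 h, and the 1086 with 55% or more had 0.24. At 16 h the same 2 classes had medians of 0.50 and 0.30. At 30 m they had 0.12 and 0.49 and at 4 h -0.12 and 0.07.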
